A study of Saccharomyces cerevisiae with 6 samples.

Results

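Excision repair removes a damaged base or a short damaged strand from DNA and fills the gap from the intact strand. The 10 genes described here are RAD4, RAD23, RAD14, RAD2, RAD7, RAD16 and RAD26 of nucleotide excision repair and OGG1, NTG1 and APN1 of base excision repair, chosen by name from 5449 yeast genes with expression values and 3838 named deletion strains. All 10 had an expression probe set and all 10 had a deletion strain. Nucleotide excision repair cuts out bulky lesions, such as those made by ultraviolet light, while base excision repair starts with a glycosylase that removes a single altered base. The resulting abasic site is then opened by an endonuclease or lyase.

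Expression was measured on 4 arrays of haploid Saccharomyces cerevisiae BY4741 in log phase in synthetic complete medium, 2 of the wild type and 2 of a fun30 deletion mutant that the labels call isogenic. FUN30 encodes a Snf2-family ATPase that moves and reshapes nucleosomes. On another 2 arrays, DNA barcodes of a library of homozygous diploid deletion strains were compared between cells transformed with a linear URA3 cassette, isu1Δ::URA3 or sod2Δ::URA3, and cells transformed with the circular URA3 plasmid pRS416. A cassette has to replace its target gene, ISU1 or SOD2, by recombination through its homologous ends, and the plasmid control needs no integration. Each cassette had 1 array, each strain was a member of a mixed pool, and the labels name no second isolate of the fun30 mutant. Nothing in the labels says whether arrays of a genotype stand for separate cultures, and the p-values then cover the spread between arrays, which may be technical.

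FUN30 (YAL019W) itself had log2 signals of 9.63 and 9.40 on the wild-type arrays and of 3.37 and 3.55 on the deletion arrays. The latter lay below the background level of 5.24, the 95th percentile of probe sets annotated outside the S. cerevisiae gene table. LEU2 and URA3, which are deleted in BY4741, stayed below that level on all 4 arrays, from 4.07 to 5.14. The pheromone genes of mating type a, MFA1 and MFA2, lay between 13.07 and 13.66, and MF(ALPHA)1 of the opposite mating type lay between 4.26 and 4.91. The α-specific genes STE3 and SAG1 lay above the background level, at 7.78 to 8.33 and 9.10 to 9.41. STE3 was higher in the mutant by 0.48, with an adjusted p of 0.0343 in limma. HO, the mating-type switching endonuclease, fell by 1.88 (adjusted p of 0.00768, limma) and FAR1, the pheromone arrest factor, by 1.26 (0.0229). The other haploid-specific genes listed, GPA1 and STE5, differed by −0.41 and 0.14 and did not pass (adjusted p of 0.180 and 0.356, limma). The meiotic kinase gene IME2 rose by 0.62 (adjusted p of 0.0222, limma). The other meiotic genes listed, IME1 and SPO11, differed by 0.20 and 0.04 and did not pass (adjusted p of 0.387 and 0.804, limma). The part of these differences in the results below was not tested. HIS3, which is only partly deleted in BY4741, lay between 12.68 and 13.09. MET17, also deleted in BY4741, had 5.49 and 5.47 in the wild type but 13.05 and 12.94 in the deletion mutant, which goes against the isogenic label of the mutant. The loss of FUN30 cannot be told apart from this or another difference between the strains in any expression result below. Median log2 signals of the arrays were 10.59 to 10.61, and the number of arrays limits the precision.

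The 7 nucleotide excision repair strains described here lay within 1.5-fold of the median on both integration arrays, whereas the strains lacking their partner nuclease, rad1 and rad10, lay past 2-fold above it. Barcode values are log2 ratios minus the array median, averaged over the tags of a strain. Each strain can have 2 tags, and the SD of a single tag was 0.28 on both arrays. The sources used here leave the numerator of the ratio unnamed, so values are given as above or below the median. The 7 strains lay between −0.48 and 0.38 on the ISU1 array, 4 of them within the quartiles of all strains, and between −0.29 and 0.10 on the SOD2 array, 6 of them within the quartiles. The apn1 strain lay past 2-fold on the SOD2 array alone, at 1.39, and the other base excision strains lay between −0.39 and 0.78 on both. None of the 10 strains passed 2-fold in the same direction on both arrays, where 2.55% of all 4235 strains measured on both did so. At 1.5-fold the count was also 0, against 7.20%. Directions are compared between the arrays as deposited, which assumes that the same pool is the numerator on both although the dyes were exchanged. With the sign of the SOD2 array turned, a setting chosen after seeing the data, 0 of the 10 and 1 of the 4235 strains passed 2-fold on both. With 1 array per cassette there is no replicate check and no test for any of these values.

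**Figure D1:**
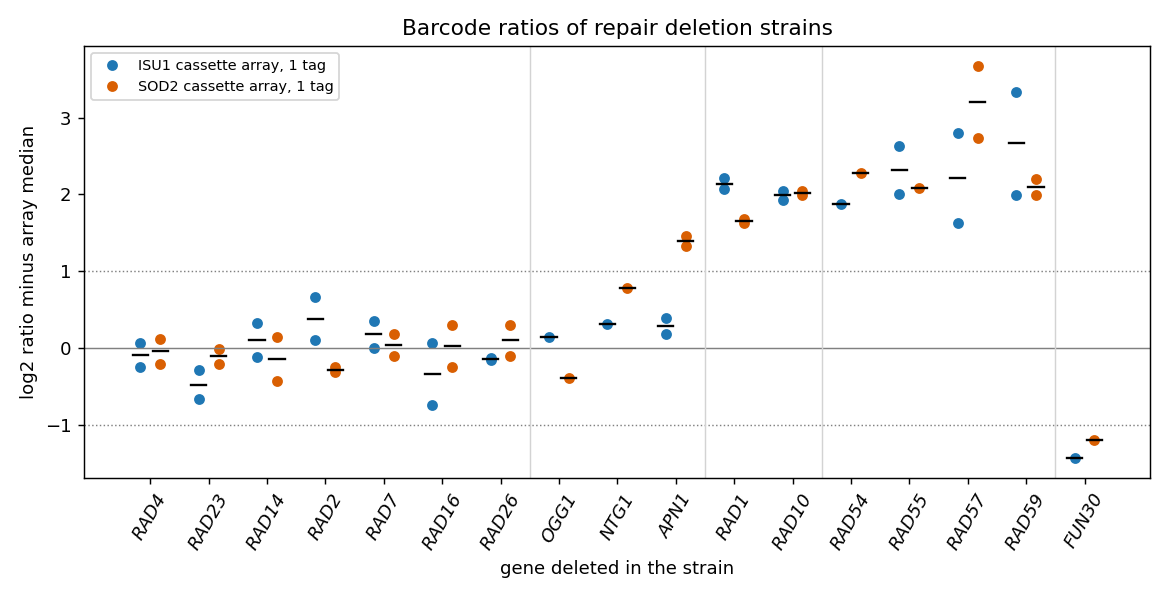
Log2 barcode ratio minus the array median for each strain, named by its deleted gene, on the ISU1 and SOD2 cassette arrays. Each point is 1 tag, each bar the mean of a strain's tags on that array, and dotted lines mark 2-fold; the 10 excision repair strains described lie on the left, with apn1 the 1 past 2-fold, on the SOD2 array.

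Rad4 and its partner Rad23 bind the distorted DNA first and Rad14 verifies the lesion. The rad4 strain had tag values of −0.25 and 0.07 on the ISU1 array and of 0.12 and −0.20 on the SOD2 array, with means of −0.09 and −0.04. The rad23 strain had −0.67 and −0.29 on the ISU1 array and −0.01 and −0.20 on the SOD2 array. The rad14 strain had 0.32 and −0.12, and then 0.14 and −0.42. Of the 8 strains with more than 1 tag, rad23 alone had all of its tags below the median, and its mean of −0.48 on the ISU1 array was the lowest of the 10, at percentile 11.3 of all strains there and percentile 38.2 on the SOD2 array.

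Rad2 cuts the damaged strand on one side of the lesion, while Rad1 and Rad10 form the nuclease that cuts on the other. The rad2 strain had tag values of 0.10 and 0.66 on the ISU1 array and of −0.32 and −0.25 on the SOD2 array. Its means of 0.38 and −0.29 thus lay on opposite sides of the median, with no overlap between the tags of the arrays. The difference of −0.66 (SOD2 minus ISU1) stood at percentile 5.05 of all strains.

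Rad7 and Rad16 act in repair of DNA that is not being transcribed, and Rad26 couples repair to stalled RNA polymerase. Rad16 and Rad26 are ATPases of the Snf2 family, as is Fun30. The rad7 strain had tag values of 0.00 and 0.36 on the ISU1 array and of −0.10 and 0.18 on the SOD2 array. The rad16 strain had −0.74 and 0.07, and then 0.29 and −0.25. The rad26 strain had −0.15 and −0.14, and then −0.10 and 0.29. The tags of rad16 disagreed by 0.81 and 0.55, more than the difference between its means on the arrays, −0.33 and 0.02. The fun30 strain, measured by 1 tag, lay at −1.43 and −1.20, outside the range of rad16 and rad26 on each array.

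The 3 base excision strains described here were spread more widely on the SOD2 array, from −0.39 to 1.39, than on the ISU1 array, from 0.14 to 0.31. The 8 other base excision strains listed lay from −0.50 to 1.84 on the SOD2 array and from −0.41 to 0.34 on the ISU1 array. Ogg1 is the glycosylase that removes oxidised guanine, and the ogg1 strain, with 1 tag, lay at 0.14 in the ISU1 experiment and at −0.39 in the SOD2 experiment. Ntg1, a glycosylase and lyase for oxidised pyrimidines, works in the nucleus and in mitochondria, and the ntg1 strain, with 1 tag, lay at 0.31 and 0.78. On the SOD2 array ntg1 stood at percentile 92.1, 1.72-fold above the median.

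Apn1 is the main endonuclease that opens abasic sites. The apn1 strain had tag values of 0.18 and 0.39 on the ISU1 array and of 1.46 and 1.33 on the SOD2 array. Both SOD2 tags were higher than both ISU1 tags, and the gap between the tags was 0.21 and 0.12. The means of 0.28 and 1.39 placed apn1 at percentile 77.8 on the ISU1 array and at rank 81 from the top of 4290 strains on the SOD2 array, 2.63-fold above the median. It was the 1 strain of the 10 past 2-fold above the median there, against 4.69% of all strains. Its difference between the arrays, 1.11, ranked 121 from the top of 4235. Strains past 2-fold above the SOD2 median and within 1.5-fold of the ISU1 median numbered 69, or 1.63%. Both apn1 and hnt3, described below, were among them. This class was not set in advance, so its share does not measure how unusual apn1 is. Strains of the 4 nearest measured genes on the chromosome, PRR1, SBA1, RAD27 and KTI12, lay between −0.93 and 0.43 on the SOD2 array.

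The 3 named strains closest to apn1 in both arrays, among 3773 others, were rtc1 (0.31 and 1.43), nat1 (0.27 and 1.48) and spt3 (0.18 and 1.45). Their Euclidean distances to apn1 over the 2 arrays were 0.042, 0.085 and 0.12. RTC1 encodes a subunit of the SEA complex, NAT1 a subunit of the NatA acetyltransferase and SPT3 a subunit of the SAGA coactivator. The spt3 value came from 1 tag. The 3 were picked by their values on these 2 arrays, so their place past 2-fold above the SOD2 median, beside apn1, follows from that choice.

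The nuclease partners of Rad2 were at a different place on the arrays. The rad1 strain had tag values of 2.22 and 2.07 on the ISU1 array and of 1.63 and 1.68 on the SOD2 array. The rad10 strain had 1.93 and 2.04, and then 2.04 and 1.99. Every tag of both strains was above every tag of the 10 strains described here, and both strains were past 2-fold on both arrays. Rad1 and Rad10 also trim non-homologous tails in recombination. The recombination strains rad54, rad55, rad57 and rad59 lay on the same side, from 1.88 to 2.67 on the ISU1 array and from 2.08 to 3.20 on the SOD2 array, rad54 with 1 tag on each. The difference between these strains and the excision repair strains has no test, since each cassette had 1 array.

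**Figure D2:**
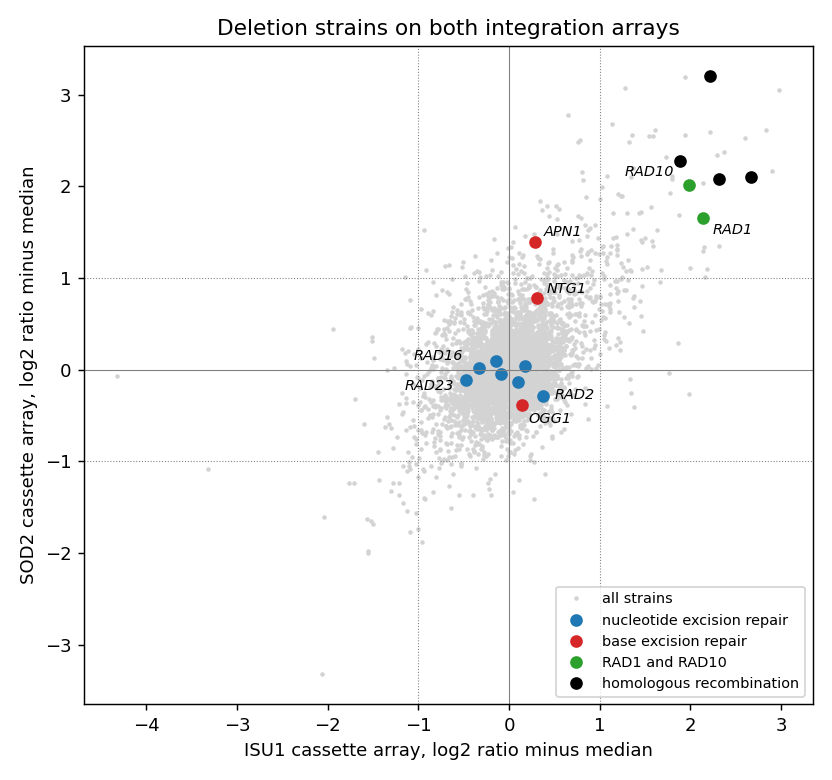
Strain means on the ISU1 array (horizontal) and the SOD2 array (vertical), in log2 ratio minus the array median, for all strains (grey) and for 4 groups of repair strains. The 7 nucleotide excision repair strains sit within 1.5-fold of both medians, apn1 (0.28 and 1.39) and ntg1 (0.31 and 0.78) higher on the SOD2 axis, and rad1 and rad10 beside the recombination strains at the upper right.

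As a set, the 10 strains had a median of 0.12 on the ISU1 array and of −0.01 on the SOD2 array, against −0.01 and 0.01 over all strains. Between the quartiles of all strains lay 5 of the 10 strains for ISU1 and 6 for SOD2. Of the 8 strains with both tags, 4 had them on the same side of the median for ISU1 and 3 for SOD2, against 69.8% and 71.3% of all such strains. The means of 5 strains, rad2, rad14, rad16, rad26 and ogg1, lay on opposite sides of the median on the arrays, where 39.2% of all strains did. With the sign of the SOD2 array turned, the other 5 strains lay on opposite sides, against 60.6% of all strains. The arrays correlated with r = 0.53 over the 4235 strains, which carry the same barcodes on both arrays, and the labels do not say whether the arrays shared a plasmid pool.

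Other listed genes of excision repair and of direct damage reversal had 17 strains measured on both arrays. The 2 that passed 2-fold on both were rad1 and rad10, where 2.55% of all strains did so. Among the accessory factors of nucleotide excision repair, the elf1 strain lay at 0.16 and −0.81 and the elc1 strain at 0.35 and 0.27. ELF1 encodes a transcription elongation factor and ELC1 a ubiquitin ligase subunit. Among other base excision genes, hnt3 lay at 0.35 and 1.84, measured by 1 tag. HNT3 encodes aprataxin, which repairs failed ligation ends. The ntg2 strain, lacking the relative of Ntg1, lay at −0.33 and −0.50. It thus lay below the median on both arrays where ntg1 lay above it. The apn2 strain, lacking the second abasic endonuclease, lay at 0.04 and −0.08, with all tags between −0.08 and 0.06. For direct reversal, the phr1 strain (photolyase) lay at 0.15 and 0.17 and the mgt1 strain (alkylguanine methyltransferase) at −0.84 and 0.14. The ISU1 tags of mgt1 were −1.56 and −0.12, so its place there rests on 1 tag.

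In the expression arrays none of the 10 genes passed the test between the fun30 mutant and the wild type (limma, adjusted p under 0.05 over 5498 probe sets), where 2.66% of all probe sets passed. At an unadjusted p under 0.05, 3 of the 10 differed in limma, 2 with a higher and 1 with a lower mean, against 22.2% of all probe sets. The widest differences were those of OGG1, −0.64, and RAD16, 0.32, in log2 signal. RNA of whole cultures was measured, so less RNA per cell cannot be told apart from fewer cells expressing a gene. All 10 genes lay above the background level on all 4 arrays.

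**Figure D3:**
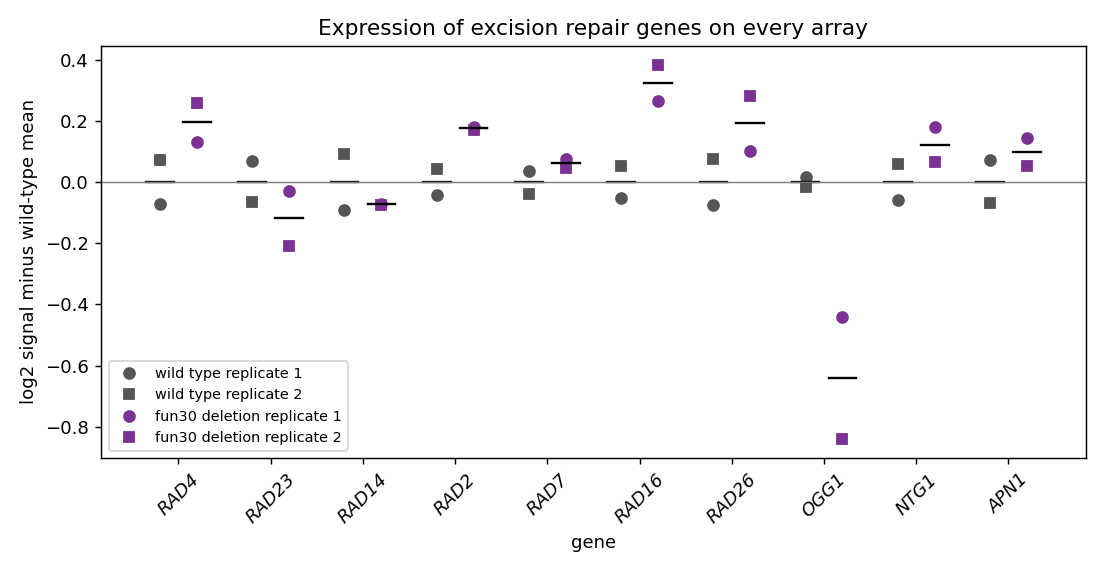
Log2 signal minus the wild-type mean for the 10 genes on each of the 4 arrays, with bars at the mean of each genotype. OGG1 lies below the wild type on both deletion arrays, RAD16 above it, and the other 8 genes have mean differences from −0.12 to 0.19.

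For the recognition factors, RAD4 (YER162C) had log2 signals of 9.95 and 10.08 in the deletion and of 9.74 and 9.89 in the wild type. RAD23 (YEL037C) had 11.93 and 11.75 against 12.02 and 11.89. RAD14 (YMR201C) had 9.10 and 9.10 against 9.08 and 9.27. The deletion arrays were above the wild-type arrays for RAD4 alone, and the groups overlapped for RAD23 and RAD14. The differences were 0.19 ± 0.09, −0.12 ± 0.09 and −0.07 ± 0.08 (SE, 2 arrays against 2), with adjusted p of 0.263, 0.487 and 0.636 in limma. The small difference of RAD14 turned to 0.02 without wild type replicate 2.

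For the nuclease RAD2 (YGR258C), the deletion arrays had 10.22 and 10.21 and the wild-type arrays 10.00 and 10.08. The groups did not overlap, and the difference of 0.18 ± 0.07 (SE) had an unadjusted p of 0.0435 and an adjusted p of 0.213 in limma. Its partners in incision, RAD10 and RAD1, differed by 0.18 and 0.15, with adjusted p of 0.251 and 0.367 in limma.

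RAD7 (YJR052W) had 10.76 and 10.73 in the deletion and 10.72 and 10.65 in the wild type, a difference of 0.06 ± 0.07 (SE, adjusted p = 0.614, limma). RAD16 (YBR114W) had 10.05 and 10.16 in the deletion and 9.73 and 9.83 in the wild type. Both deletion arrays were above both wild-type arrays, by more than the arrays of either genotype differed. The difference of 0.32 ± 0.08 (SE), or 1.25-fold with a 95% interval of 1.09 to 1.44, had an unadjusted p of 0.00812 and an adjusted p of 0.112 in limma. The proteins Rad7 and Rad16 work as a complex, and the intervals of their genes were −0.11 to 0.23 and 0.13 to 0.52 in log2. That these intervals overlap is not a comparison of the 2 genes, which was not tested. RAD26 (YJR035W) had 8.83 and 9.01 in the deletion and 8.65 and 8.81 in the wild type, a difference of 0.19 ± 0.10 (SE, adjusted p = 0.303, limma).

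OGG1 (YML060W) had 8.32 and 7.92 in the deletion and 8.77 and 8.74 in the wild type. Both deletion arrays were below both wild-type arrays, and the deletion arrays themselves lay 0.40 apart, a gap that 2.26% of probe sets exceeded. The difference of −0.64 ± 0.14 (SE), or a fold of 0.64 with a 95% interval of 0.50 to 0.82, had an unadjusted p of 0.00505 and an adjusted p of 0.0913 in limma. Without fun30 deletion replicate 1 the difference was −0.84 with an adjusted p of 0.00194 (limma). In that fit the lone deletion array is assumed to vary like the wild-type arrays, which lay 0.03 apart for OGG1. Leaving out any other single array gave an adjusted p of 0.0859 to 0.244. A lower mean difference than that of OGG1 was found for 126 of the 5498 probe sets.

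NTG1 (YAL015C) lies on the same chromosome as FUN30, with TPD3 and PSK1 among the measured genes between them. It had 10.41 and 10.30 in the deletion and 10.17 and 10.29 in the wild type, a difference of 0.12 ± 0.08 (SE, adjusted p = 0.415, limma). APN1 (YKL114C) had 11.77 and 11.67 in the deletion and 11.69 and 11.55 in the wild type, a difference of 0.10 ± 0.08 (SE, adjusted p = 0.515, limma). The groups overlapped for APN1, and for NTG1 the lowest deletion array and the highest wild-type array were nearly equal.

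Taken by counts, 6 of the 10 genes had both deletion arrays above both wild-type arrays, which held for 28.5% of all probe sets. In the opposite direction it was 1 of 10, OGG1, against 30.0%. The lowest deletion and highest wild-type arrays were close for NTG1 (10.30 and 10.29), RAD7 (10.73 and 10.72) and RAD26 (8.83 and 8.81). They were further apart for RAD4 (9.95 and 9.89), RAD2 (10.21 and 10.08) and RAD16 (10.05 and 9.83). All 10 genes were read on the same 4 arrays, so these counts are not independent and were not tested. The median difference was 0.11 over the 10 genes and 0.18 over the 7 of nucleotide excision repair, against −0.003 over all probe sets. When 1 array was left out, the difference ranged from −0.21 to −0.03 for RAD23, from 0.03 to 0.17 for APN1, from 0.02 to 0.10 for RAD7, from 0.06 to 0.18 for NTG1, from 0.12 to 0.27 for RAD4 and from 0.10 to 0.28 for RAD26. Between the arrays of a genotype, the SD of the log2 difference over probe sets was 0.14 for the mutant and 0.18 for the wild type.

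Among 37 further genes of these pathways 0 passed (limma, adjusted p), against 2.66% of all probe sets. At an unadjusted p under 0.05 in limma, 1 was higher and 3 were lower, against 22.2% of all probe sets. The 37 genes had a median difference of 0.03. None of 10 accessory genes of nucleotide excision repair passed, and the widest differences were 0.36 for RAD34, the relative of RAD4, and −0.25 for CUL3, a cullin. None of the 10 genes of TFIIH passed, the factor that opens DNA around a lesion, where SSL1 differed by −0.16 and CCL1 by 0.16. The 3 genes of replication protein A, which coats single-stranded DNA, differed by −0.06 to 0.06, RFA3 being the lowest and RFA2 the highest. In the rest of base excision repair 0 of 10 passed. APN2, the second abasic endonuclease gene, differed by 0.34 ± 0.14 (SE), and its wild-type arrays lay at 9.99 and 10.39. RAD27, the flap endonuclease gene next to APN1, differed by −0.34 ± 0.11 (SE, adjusted p = 0.179, limma). NTG2 differed by 0.03. In direct reversal PHR1 differed by 0.33 and MGT1 by −0.20, both with an adjusted p over the threshold (0.189 and 0.181, limma).

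**Figure D4:**
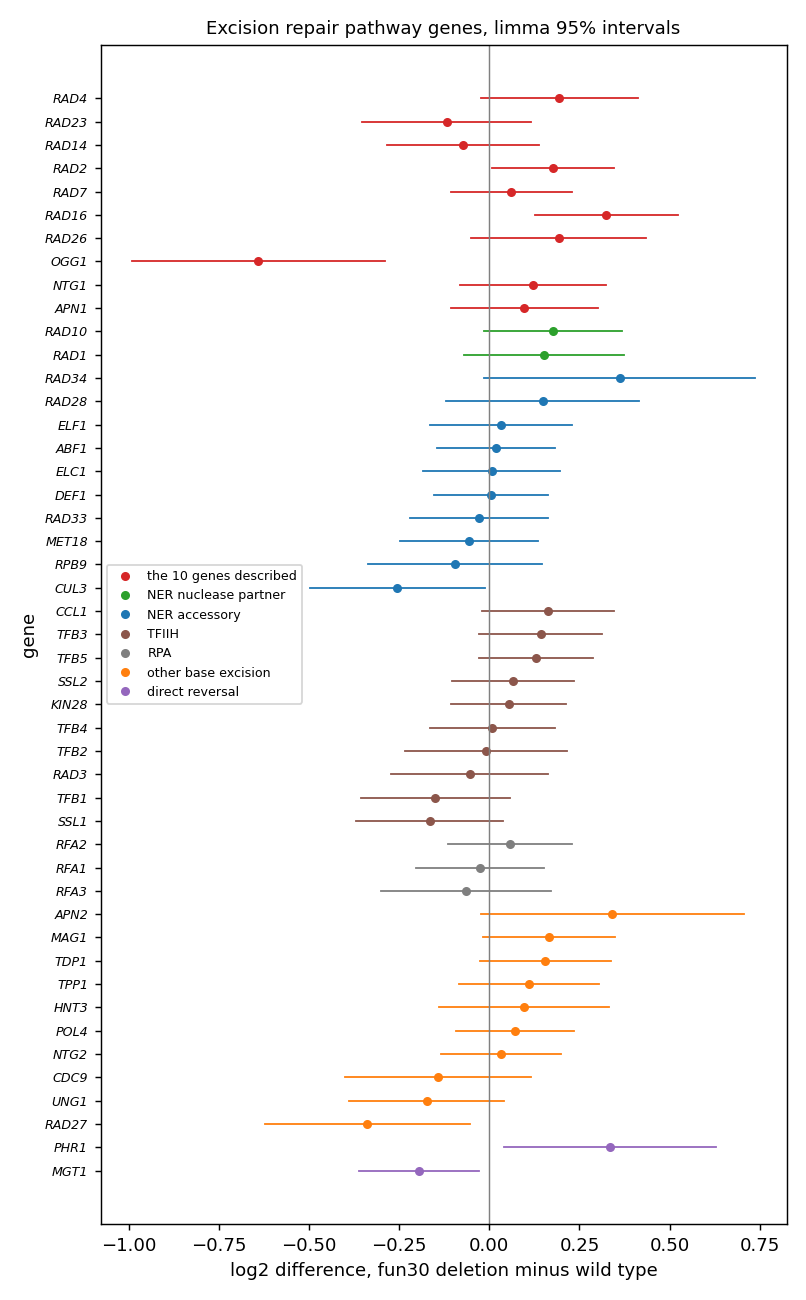
Log2 difference (deletion minus wild type) with unadjusted 95% intervals from limma for the 10 genes and 37 further pathway genes. Differences run from −0.64 for OGG1 to 0.36 for RAD34, and none passed the test after adjustment, against 2.66% of all probe sets.

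The 2 nearest measured genes on each side of the 10 genes gave 40 neighbour values in expression, from −0.60 to 0.72 with a median of 0.04. Of these 1 passed, against 2.66% of all probe sets. It was HUG1, which encodes an inhibitor of ribonucleotide reductase and lies 2 genes from OGG1 (0.72, adjusted p = 0.0145, limma). PIF1, a helicase gene on the other side of OGG1, differed by −0.23 and did not pass. OGG1 differed in sign from HUG1 and had the same sign as PIF1, and a link to either was not tested. On the integration arrays 0 of 40 neighbour strains passed 2-fold on both, against 2.55% of all strains.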

How the data were processed

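Expression values are log2 signals that the authors made with RMA, per the submitters' processing notes (limma is named there too). RMA makes the arrays' distributions nearly equal. The barcode arrays hold linear channel ratios as deposited by the authors, with scaling and numerator not given in the sources used here. Cassette pools carried Cy3 on the ISU1 array and Cy5 on the SOD2 array, per the labels. Features 10971 apart named the same gene in 3400 pairs, with 0 exceptions, and were taken as the tags of 1 strain.

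Of 10928 probe sets, 5498 name 1 gene of the RefSeq table (assembly R64) and were tested with limma 3.58.1 in R 4.3.3 (genotype only, 2-sided, Benjamini-Hochberg, 2 residual and 3.23 prior degrees of freedom). The log2 ratio of each tag had its array median subtracted, and tags were averaged, without a test, in Python 3.11.15. The array tables name no genome build, so no coordinates are given, and no sequence is shown. All 10 genes are named, with 2 genes of each further list by size of difference or mean. Members and lists were chosen with earlier results of these data known. Alternatives were the replicate block, leaving out an array, a filter on dim probe sets, quantile normalization, an intensity trend, 1.5-fold, single tags and other centring. Procedures were tested on simulated data.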

Additional observations from a re-analysis of the deposited data

Results flagged for a closer look

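The means of 5 deletion strains lay on opposite sides of the median on the ISU1 and SOD2 arrays, and the difference was not tested, since each cassette had 1 array. They were rad2 (0.38 for ISU1 and −0.29 for SOD2), ogg1 (0.14 and −0.39), rad16 (−0.33 and 0.02), rad26 (−0.14 and 0.10) and rad14 (0.10 and −0.14). The same held for 39.2% of all strains, and 5 of 10 is near that share. The SD of a single tag was 0.28, and the tags of rad14 and rad16 lay on both sides of the median on each array. The comparison assumes that the same pool is the numerator on both arrays, although the dyes were exchanged and the labels do not name it. With the sign of the SOD2 array turned, the other 5 strains lay on opposite sides, against 60.6% of all strains.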

How the results depend on the processing

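The count of 0 genes called among the 10 was the same with dim probe sets left out, with quantile normalization and with an intensity trend. Leaving out 1 array at a time gave 0 to 1 called among the 10 and 75 to 423 among all probe sets, against 146. The 1 call was OGG1, without fun30 deletion replicate 1, where the lone deletion array is assumed to vary like the wild type. The difference of RAD14 ranged from −0.16 to 0.019 when 1 array was left out, changing sign without wild type replicate 2, and the cause was not tested. With the replicate number as a block, 2 of the 10 passed, OGG1 with adjusted p = 0.0127 and RAD16 with adjusted p = 0.0266 (limma), and 794 probe sets in all. The labels do not say that numbers pair the arrays. The deviations of same-numbered arrays correlated with r = 0.26 over probe sets, and 2 pairs cannot settle a pairing. On the integration arrays the 10 strains had 0 calls at 1.5-fold, with either tag alone and with other centring. At 1.5-fold 305 strains in all passed against 108 at 2-fold. With the sign of the SOD2 array turned, chosen after seeing the data, 0 of the 10 and 1 strain in all passed. Among the 10 strains, the values of rad16 on the ISU1 array and of rad14 on the SOD2 array moved by more than the SD of a tag when a single tag was used.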
